A study of Mus musculus with 20 samples.

Results

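The matrilins are a small family of extracellular adaptor proteins, and their genes Matn1, Matn2, Matn3 and Matn4 were followed by RNA-seq in ATDC5 cells, a chondrogenic line of mouse origin that makes cartilage-like nodules in culture. The members were taken by gene symbol, and all 4 were found among the 27911 genes of the deposited table. Each also passed the filter on low counts, which kept 15467 genes. The tested cells were 2 Kmt2d-/- clones with deletions of the catalytic SET domain on both alleles, and the controls were 3 Kmt2d+/+ clones of the same line. Each clone is a cell line of its own, so the spread within a group is the spread between clones. In the sample titles, 10-7 and 96-9 are Kmt2d-/- clones 1 and 2. The Kmt2d+/+ clones 1, 2 and 3 carry the names 10-5, 10-7 and 10-8 there. Every clone was sampled after 7 days in chondrogenic medium (day 7) and undifferentiated (day 0). Both genotypes received the same medium, with insulin, transferrin, selenium, ascorbic acid and β-glycerophosphate. Each of the 10 libraries was read on 2 flow cells, whose counts were summed.

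Matrilins are built from von Willebrand factor A (VWA) domains, epidermal growth factor repeats and a coiled coil through which the chains assemble into oligomers. They bind collagen fibrils, aggrecan and cartilage oligomeric matrix protein (COMP), and link these into the filament network between chondrocytes. Matn1, the cartilage matrix protein, and Matn3 are expressed mainly in cartilage, while Matn2 and Matn4 are also made in many other connective tissues. In humans, mutations of MATN3 cause multiple epiphyseal dysplasia, a disorder of growing joints. KMT2D is a histone H3 lysine 4 methyltransferase that acts at enhancers, and its SET domain carries the enzyme activity.

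The genes lie on separate chromosomes (GRCm38 coordinates). Matn1 (ENSMUSG00000040533) spans chromosome 4 from 130944385 to 130955475 on the plus strand. Matn3 (ENSMUSG00000020583) spans chromosome 12 from 8947929 to 8972028 on the plus strand. Matn2 (ENSMUSG00000022324) spans chromosome 15 from 34306677 to 34436273 on the plus strand. Matn4 (ENSMUSG00000016995) spans chromosome 2 from 164389393 to 164405160 on the minus strand. Promoters are shown for the 3 members whose expression rose in Kmt2d-/- clones at day 7, each as the 250 bases before the first start site annotated in the RefSeq table (GRCm38.p6), 5′ to 3′ along the gene. Capitals mark matches to the GC box GGGCGG on either strand.
Matn1, chr4:130944135-130944384, plus strand: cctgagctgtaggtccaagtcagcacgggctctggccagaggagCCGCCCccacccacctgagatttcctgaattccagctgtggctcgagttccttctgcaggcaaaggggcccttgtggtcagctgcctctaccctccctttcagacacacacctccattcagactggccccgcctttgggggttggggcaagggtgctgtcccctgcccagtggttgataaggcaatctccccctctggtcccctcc
Matn3, chr12:8947679-8947928, plus strand: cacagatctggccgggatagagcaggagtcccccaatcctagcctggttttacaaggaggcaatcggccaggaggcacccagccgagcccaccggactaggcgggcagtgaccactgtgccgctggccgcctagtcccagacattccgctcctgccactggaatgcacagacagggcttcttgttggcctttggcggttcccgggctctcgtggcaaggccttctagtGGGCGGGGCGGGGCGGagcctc
Matn4, chr2:164405161-164405410, minus strand: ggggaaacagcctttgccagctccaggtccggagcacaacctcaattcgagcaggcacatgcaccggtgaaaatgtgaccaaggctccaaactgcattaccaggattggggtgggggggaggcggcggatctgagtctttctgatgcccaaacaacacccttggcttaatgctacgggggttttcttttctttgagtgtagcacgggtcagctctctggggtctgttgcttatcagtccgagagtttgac
Among RefSeq entries 3 of the 4 members were matched, and Matn2 is named only. Of 5 letter patterns searched on both strands, only the GC box occurred in the windows printed. The others were TATAAA (the TATA box), AACAAT and ACAAAG (cores bound by SOX proteins) and TTGGCA (a nuclear factor I half-site). Matn3 held 3 GC boxes in 1 run, beginning 22, 17 and 12 bases before the start, and Matn1 held 1 on the opposite strand, 206 bases before it. The window printed for Matn4 held none of the 5 patterns. RefSeq also places a second start site of Matn4 further into the gene, and its window (chr2:164404819-164405068), not printed here, held 1 GC box on the opposite strand, 6 bases before that start. Among 32851 RefSeq windows of this length, 32.7% held a GC box, 12.4% TATAAA, 9.42% AACAAT, 16.5% ACAAAG and 12.3% TTGGCA. GC content was 62.0% for Matn1, 65.2% for Matn3 and 54.4% for Matn4.

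Summed libraries held 35792773 to 66237188 counts. Values are CPM (reads per gene relative to library size) after TMM scaling, and the floor of 3 counts corresponds to 0.0409 to 0.0859 CPM. The 10 most abundant genes took 8.26% to 12.8% of counts in Kmt2d-/- libraries and 6.19% to 7.65% in Kmt2d+/+ libraries. The 8 chondrocyte markers summed to 23500 to 27680 CPM in Kmt2d-/- clones and 299.6 to 1038 CPM in Kmt2d+/+ clones at day 7. At day 0 they summed to 1016 to 2840 CPM in Kmt2d-/- clones and 38.4 to 127 CPM in Kmt2d+/+ clones. In no group was a marker at 0. Most of each mutant sum came from the collagen gene Col2a1. Its levels in Kmt2d-/- clones 1 and 2 were 20470 and 24450 CPM after 7 days, against 2533 and 806.4 CPM when undifferentiated. Each of the 8 markers was higher in both mutants than in every control at day 7, an ordering of 17.9% of genes tested. At day 0 this held for Col2a1, Sox9, Hapln1, Col9a1 and Col11a2, and for 18.6% of genes tested. Acan, Comp and Cnmd overlapped between genotypes at day 0. Sums of hypertrophic chondrocyte markers overlapped between genotypes at day 7 (mutants 1816 to 2069 CPM, controls 1700 to 2179 CPM) and also at day 0. Osteoblast marker sums overlapped at day 7 (mutants 215.9 to 307.1 CPM, controls 237.2 to 385.7 CPM). Undifferentiated, the sums were higher in mutants (171.1 to 201.9 CPM, controls 97.1 to 128.3 CPM), mostly through Sp7. Sp7 then had 200.5 and 168.5 CPM in mutants, against 83.7, 91.7 and 120.4 CPM in controls. Bglap, Bglap2 and Phex were lower in both mutants than in every control at day 0, an ordering of 18.3% of genes tested. Dmp1 and Ifitm5 overlapped between genotypes. Skeletal muscle, immune and epithelial markers summed to 1.49 CPM or less in every library. Tendon and fibroblast markers summed to 38.9 to 92.5 CPM over all libraries. Sums were 7.63 to 84.0 CPM for neuron, 5.87 to 24.5 CPM for adipocyte and 4.68 to 8.78 CPM for endothelium markers. These came mostly from Tubb3, Pparg and Pecam1, in that order. The 6 markers of peripheral glia summed to 12.7 to 19.4 CPM in Kmt2d-/- clones and 6.74 to 9.35 CPM in Kmt2d+/+ clones at day 7, with Sox10, which defines these cells, at 0 in both Kmt2d-/- clones. The part of these markers, and of the share of the most abundant genes, in the results below was not tested. In bulk RNA, fewer cells expressing a gene and less RNA per cell cannot be told apart. Kmt2d itself had 174.8 and 113.3 CPM in Kmt2d-/- clones at day 7, against 186.7, 173.3 and 207.0 CPM in Kmt2d+/+ clones. A count over the whole gene does not measure the deleted part, so it does not check the genotype.

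Matn2 made up nearly the whole matrilin pool of undifferentiated cells, and the other members joined it at day 7, above all in the mutants. Members were compared with each other as CPM per kilobase of summed exon length. The 4 genes together reached 76.1 and 69.8 CPM per kilobase in Kmt2d-/- clones at day 7, against 32.7, 16.3 and 28.8 in Kmt2d+/+ clones. At day 0 the pool was 15.8 and 12.3 CPM per kilobase in Kmt2d-/- clones, against 15.4, 11.9 and 11.5 in Kmt2d+/+ clones. At day 7 the groups did not overlap, and at day 0 they did.

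At day 7 Matn2 held 48.6% ± 6.72 of the pool in Kmt2d-/- clones (SD, n = 2) and 84.4% ± 2.71 in Kmt2d+/+ clones (SD, n = 3). The share of Matn1 was 39.1% ± 13.4 in Kmt2d-/- clones and 14.1% ± 2.64 in Kmt2d+/+ clones. Matn4 held 7.95% ± 4.42 in Kmt2d-/- clones and 0.342% ± 0.161 in Kmt2d+/+ clones, and thus stood above Matn3 in the mutants and below it in the controls. Matn3 held 4.31% ± 2.20 in Kmt2d-/- clones and 1.17% ± 0.106 in Kmt2d+/+ clones. At day 0 Matn2 held 98.4% in Kmt2d-/- clones and 98.9% in Kmt2d+/+ clones. These shares depend on the length used. In Kmt2d-/- clone 2 at day 7 Matn1 had 48.6% and Matn2 43.8% of the pool, but with the longest protein-coding transcript as length Matn2 led in every library and averaged 58.0% in the mutants. Matn4 then also exceeded Matn3 in Kmt2d+/+ clone 1 at day 7 and averaged 12.0% in Kmt2d-/- clones. In Kmt2d+/+ clones at day 7 that length put the share of Matn1 at 8.61% and that of Matn3 at 0.713%.

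**Figure D1:**
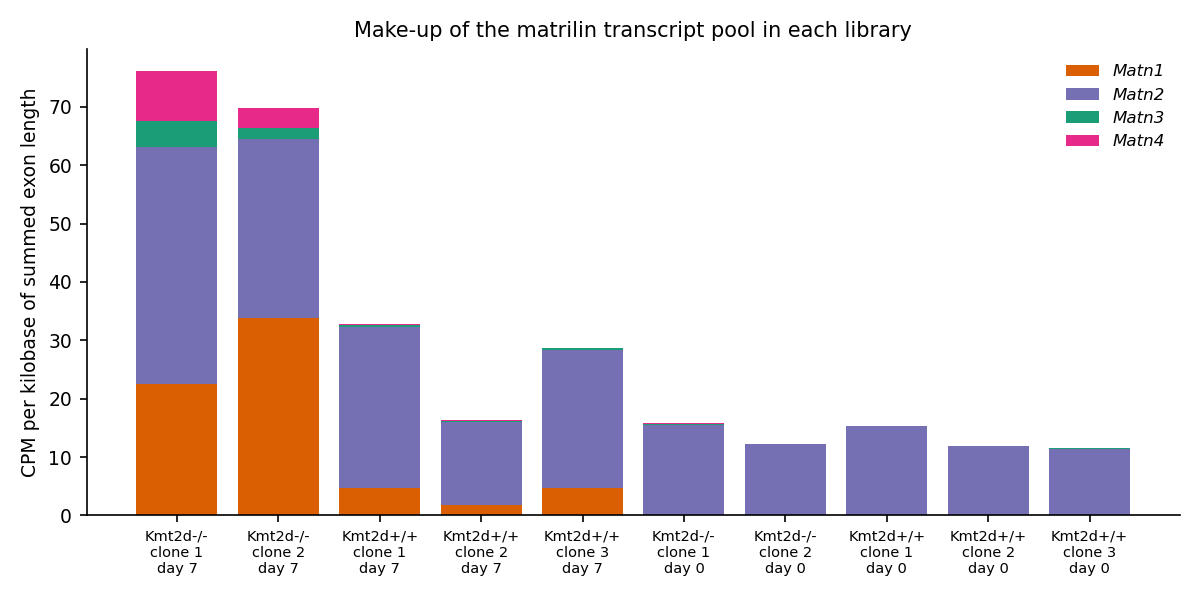
Stacked bars give the CPM per kilobase of summed exon length of the 4 matrilin genes in each of the 10 libraries, Kmt2d-/- before Kmt2d+/+ at each day. Matn2 fills nearly all of each day 0 bar, and the 2 Kmt2d-/- bars of day 7 reach 76.1 and 69.8, above the highest Kmt2d+/+ bar of 32.7.

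At day 7, Matn1, Matn3 and Matn4 rose in Kmt2d-/- clones relative to Kmt2d+/+ clones, and Matn2 did not pass the test. Thus 3 of the 4 members passed, where 1.87% of all genes tested passed in either direction and 0.905% were called higher. Matn4 showed the widest gap of the family, 63.1-fold, and ranked 22 by p among all genes tested. In all 4 genes both Kmt2d-/- clones lay above all 3 Kmt2d+/+ clones, an ordering that 17.9% of genes tested shared. The same 3 genes passed in DESeq2, where 10.3% of all genes did.

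Matn1 had 45.2 and 67.8 CPM in Kmt2d-/- clones 1 and 2, against 9.54, 3.66 and 9.46 CPM in Kmt2d+/+ clones 1, 2 and 3. The lowest mutant thus stood well above the highest control, and control clone 2 was below its fellows. The log2 fold change was 2.90 (SE 0.53), a 7.48-fold difference, with an adjusted p of 0.0369. Matn3, the other cartilage matrilin, had 13.4 and 5.79 CPM in Kmt2d-/- clones, against 1.09, 0.546 and 1.12 CPM in Kmt2d+/+ clones. Here too the groups were apart, on counts of 699 and 316 in the mutants against 66, 37 and 82 in the controls. Its log2 fold change was 3.39 (SE 0.60), a 10.5-fold difference, with an adjusted p of 0.0346.

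Matn4 had 43.6 and 17.4 CPM in Kmt2d-/- clones, against 0.888, 0.236 and 0.327 CPM in Kmt2d+/+ clones. No control reached 1 CPM. The log2 fold change was 5.98 (SE 0.71), with an adjusted p of 0.0101. Matn2, the broadly expressed member, had 254.2 and 191.7 CPM in Kmt2d-/- clones, against 171.9, 89.0 and 147.8 CPM in Kmt2d+/+ clones. The lower mutant exceeded the highest control by less than the spread within either group. Its log2 fold change was 0.71 (SE 0.28), with an adjusted p of 0.206.

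The mutants did not share 1 order, since clone 2 had more Matn1 but less Matn2, Matn3 and Matn4 than clone 1. Among controls, clone 2 was the lowest for every member. With each clone left out in turn, the Matn1 call was lost without either Kmt2d-/- clone or Kmt2d+/+ clone 1 or 3 (adjusted p 0.131, 0.158, 0.066 and 0.198), and Matn3 without Kmt2d-/- clone 1 or any Kmt2d+/+ clone (adjusted p 0.132, 0.0864, 0.0644 and 0.193). Matn4 was lost without Kmt2d-/- clone 1 (log2 fold change 5.16, adjusted p 0.0634) or Kmt2d+/+ clone 3 (5.75, adjusted p 0.135), and was 6.75 without Kmt2d+/+ clone 1 (adjusted p 0.0438), while Matn3 was 2.66 without Kmt2d-/- clone 1. Fitted to the day 7 libraries alone, Matn1 and Matn3 both missed the threshold (adjusted p 0.0701), and Matn3 also missed it in flow-cell run 1 alone (adjusted p 0.0513).

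**Figure D2:**
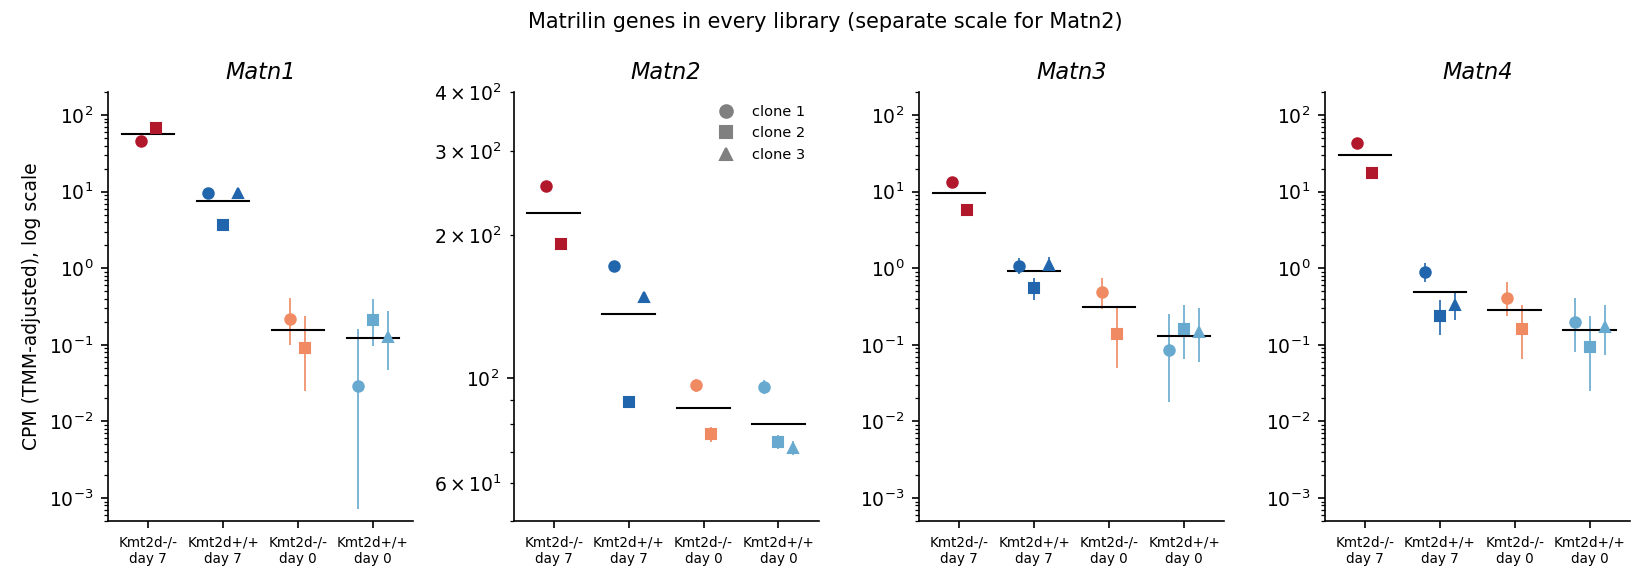
Points give TMM-adjusted CPM of each matrilin gene in each library on a log axis, with exact Poisson 95% intervals for counting error and a line at the mean of each group. Matn2 has its own scale. In Matn1, Matn3 and Matn4 the 2 Kmt2d-/- clones of day 7 stand above every other library.

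Before differentiation no member passed between genotypes, and the clones of the groups overlapped for all 4. At day 0 both Kmt2d-/- clones lay above all Kmt2d+/+ clones in 18.6% of genes tested and below them in 18.3%. Overlap thus does not set the matrilins apart. Among all genes tested, 2.15% passed at day 0 in edgeR's quasi-likelihood test and 20.2% had an unadjusted p under 0.05, and 0 matrilins met either criterion. By DESeq2, which called 10.6% of genes, and by limma-voom, which called 1.72%, 0 matrilins passed as well. With only 4 members, a count of 0 does not set them apart by any of these rules. Matn1 had 0.217 and 0.0917 CPM in Kmt2d-/- clones, against 0.0286, 0.209 and 0.126 CPM in Kmt2d+/+ clones. These levels rest on 9 and 4 counts in mutants and on 1, 9 and 6 counts in controls.

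Matn3 had 0.483 and 0.138 CPM in Kmt2d-/- clones, against 0.0859, 0.163 and 0.148 CPM in Kmt2d+/+ clones at day 0. Mutant clone 1 was the highest and the other mutant lay among the controls, and the log2 fold change was 1.20 (SE 0.66, adjusted p 0.345). Matn4 had 0.411 and 0.161 CPM in Kmt2d-/- clones, against 0.201, 0.0928 and 0.169 CPM in Kmt2d+/+ clones. It showed the same arrangement, with a log2 fold change of 0.89 (SE 0.75, adjusted p 0.551). Without Kmt2d-/- clone 1 these values were 0.046 for Matn3 and 0.067 for Matn4, and without Kmt2d-/- clone 2 they were 1.84 and 1.42 in the same order.

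Matn2, well measured at day 0, had 96.6 and 76.1 CPM in Kmt2d-/- clones, against 95.7, 73.4 and 71.3 CPM in Kmt2d+/+ clones. Its log2 fold change was 0.11 (SE 0.28, adjusted p 0.870), and that of Matn1 was 0.29 (SE 0.77, adjusted p 0.871). For comparison, Col2a1, the main collagen of cartilage and a matrilin partner, had 2533 and 806.4 CPM in Kmt2d-/- clones at day 0, against 2.72, 34.4 and 8.66 CPM in Kmt2d+/+ clones. It passed at this day (log2 fold change 6.77, SE 1.04, adjusted p 0.023). The Col2a1 call was lost without either Kmt2d-/- clone or Kmt2d+/+ clone 1 or 3 (adjusted p 0.0759 to 0.190), with log2 fold changes of 5.72 to 8.18 when any clone was left out, and also when only the day 0 libraries were fitted (adjusted p 0.101).

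**Figure D3:**
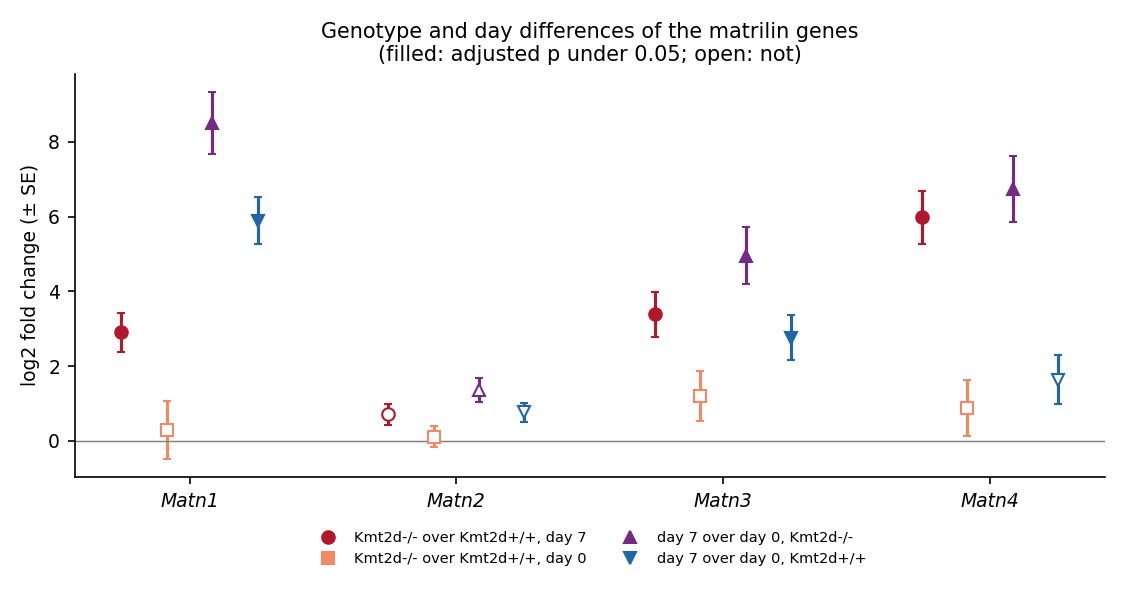
Log2 fold changes with SE from the edgeR fit are shown for each matrilin gene, with filled symbols for an adjusted p under 0.05. The genotype comparison of day 7 is filled for Matn1, Matn3 and Matn4, and that of day 0 is open for all 4 genes.

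Over 7 days, Matn1, Matn3 and Matn4 rose in Kmt2d-/- clones, and all 4 members were higher at day 7 in both clones. In this comparison 3 of 4 members passed, where 1.27% of genes tested passed and 0.672% were called higher. The ordering of every day 7 library above every day 0 library held for all 4 members and for 22.9% of genes tested. Matn1 changed 362.1-fold (log2 8.50, SE 0.83, adjusted p 0.0114) and ranked 4 by p among all genes. Matn4 changed 106.3-fold (log2 6.73, SE 0.89, adjusted p 0.0207) and Matn3 30.9-fold (log2 4.95, SE 0.76, adjusted p 0.0305).

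Matn2 reached 254.2 and 191.7 CPM at day 7 in Kmt2d-/- clones, against 96.6 and 76.1 CPM at day 0. Its 2.58-fold difference did not pass (log2 1.37, SE 0.32, adjusted p 0.0822). With a term for each clone as a replicate block it passed (log2 1.37, adjusted p 0.0233), so that all 4 members passed, where 3.16% of genes tested were called higher. In DESeq2 Matn2 passed too (log2 1.37, adjusted p 0.0024), where 3.63% of genes tested were called higher. All 3 calls were lost without either Kmt2d-/- clone or without Kmt2d+/+ clone 3 (adjusted p 0.0658 to 0.213), and Matn3 also without Kmt2d+/+ clone 1 (adjusted p 0.0588). Matn1 was 9.49 on the log2 scale without Kmt2d-/- clone 1 and 7.68 without clone 2, and fitted to the Kmt2d-/- libraries alone 0 members passed (adjusted p 0.0755 to 0.146 for the 3 genes).

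In Kmt2d+/+ clones the same 7 days raised Matn1 and Matn3, whereas Matn2 and Matn4 did not pass. Here 2 of 4 members passed, where 5.08% of genes tested passed and 3.05% were called higher. Day 7 lay above day 0 in every library for Matn1, Matn3 and Matn4, an ordering that 16.2% of genes tested shared. Matn1 changed 59.2-fold (log2 5.89, SE 0.63, adjusted p 0.00741) and Matn3 6.77-fold (log2 2.76, SE 0.60, adjusted p 0.0392). Matn4 stayed under 1 CPM at both days, with a log2 fold change of 1.64 (SE 0.66, adjusted p 0.166).

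Matn2 had 171.9, 89.0 and 147.8 CPM at day 7 in Kmt2d+/+ clones, against 95.7, 73.4 and 71.3 CPM at day 0. Clone 2 at day 7 lay below clone 1 at day 0, and the log2 fold change was 0.77 (SE 0.26, adjusted p 0.109). With the replicate block, each clone set against itself, Matn2 (log2 0.73, adjusted p 0.0331) and Matn4 (log2 1.5, adjusted p 0.0291) passed as well, where 10.3% of genes tested were called higher. In DESeq2 Matn2 passed as well (log2 0.75, adjusted p 0.0496), where 8.57% of genes tested were called higher, and Matn4 did not. Matn1 and Matn3 were lost without Kmt2d+/+ clone 1 (log2 5.28 and 2.41, adjusted p 0.0654 and 0.244) or clone 3 (log2 5.69 and 2.66, adjusted p 0.186 and 0.303), and Matn3 also without clone 2 (adjusted p 0.0545). Matn1 was 6.79 on the log2 scale without clone 2, and Matn3 was lost in limma-voom (adjusted p 0.0931) and in flow-cell run 2 alone (log2 2.12, adjusted p 0.0745, against 3.45 in run 1 alone).

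Within single clones the day 7 level was divided by the day 0 level. For Matn4 the ratio was 106.2 (exact binomial 95% interval 66.2 to 182.6) and 108.5 (52.5 to 270.7) in Kmt2d-/- clones. It was 4.43 (2.01 to 11.5), 2.54 (0.820 to 10.4) and 1.94 (0.844 to 5.00) in Kmt2d+/+ clones. The mutant intervals thus lay above those of all 3 controls, of which 2 included 1. Intervals cover counting error only.

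For Matn1 the ratio was 207.9 (109.3 to 455.3) and 739.6 (288.6 to 2716) in Kmt2d-/- clones. It was 333.1 (59.6 to 13180), 17.5 (9.07 to 38.7) and 74.8 (34.2 to 204.6) in Kmt2d+/+ clones, the first of which rests on 1 count at day 0. The clones of the genotypes therefore overlapped in this ratio. For Matn3 the ratio was 27.8 (17.88 to 45.85) and 42.1 (19.14 to 115.6) in Kmt2d-/- clones. It was 12.6 (4.14 to 62.84), 3.36 (1.478 to 8.925) and 7.58 (3.52 to 19.44) in Kmt2d+/+ clones, on 3, 7 and 7 counts at day 0. The Matn3 intervals of Kmt2d+/+ clones 1 and 3 overlapped those of both Kmt2d-/- clones. For Matn2 the ratio was 2.63 and 2.52 in Kmt2d-/- clones and 1.79, 1.21 and 2.07 in Kmt2d+/+ clones. The ratios themselves, without their intervals, were thus apart between genotypes for both Matn3 and Matn2. A ratio higher in both Kmt2d-/- clones than in all 3 Kmt2d+/+ clones was found for Matn2, Matn3 and Matn4 and for 11.9% of genes tested.

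**Figure D4:**
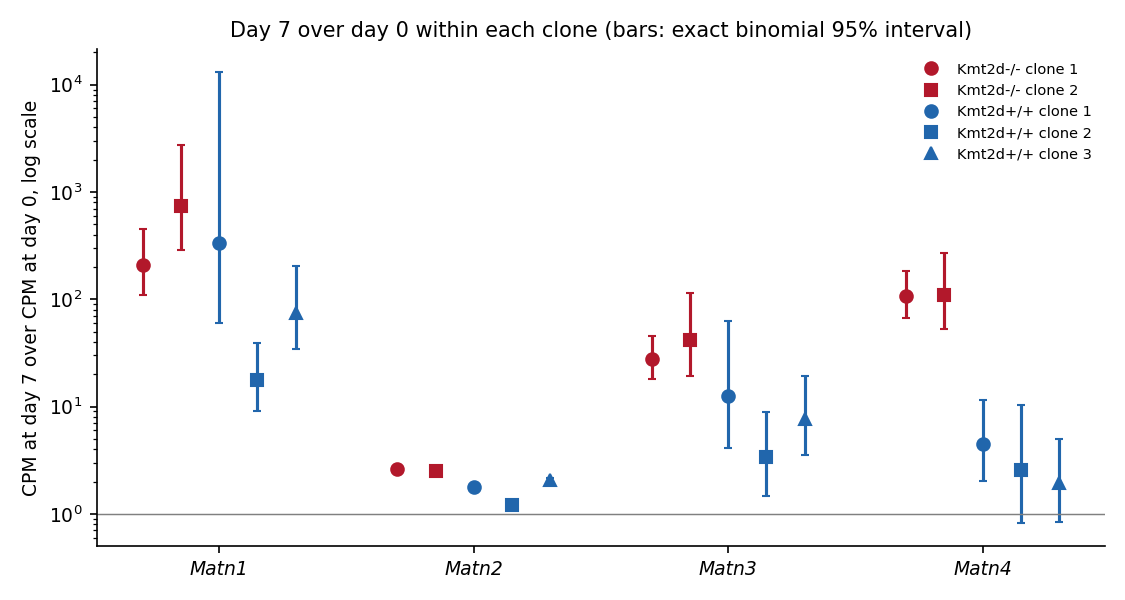
Each point is the ratio of CPM at day 7 to CPM at day 0 in 1 clone on a log axis, with the exact binomial 95% interval of the counts. For Matn4 both Kmt2d-/- clones lie above 100 and the 3 Kmt2d+/+ clones between 1.94 and 4.43, while for Matn1 the genotypes overlap.

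Whether the change over 7 days differed between the genotypes was tested by the interaction, the day effect in Kmt2d-/- clones minus that in Kmt2d+/+ clones. No member passed, and neither did any of the 15467 genes in edgeR (0.0% called) or in limma-voom. The difference was 5.09 on the log2 scale for Matn4 (SE 1.03, unadjusted p 0.0008), 2.61 for Matn1 (SE 0.95, unadjusted p 0.0224), 2.19 for Matn3 (SE 0.91, unadjusted p 0.0389) and 0.60 for Matn2 (SE 0.40, unadjusted p 0.168). All 4 had an adjusted p of 1.0. An unadjusted p under 0.05 was found for 3 of the 4 members and for 3.67% of genes tested. In DESeq2 Matn4 passed (log2 5.10, adjusted p 0.00178), as did 0.175% of genes tested, and the other members did not.

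Ordered by level, Matn1 ran 56.5 CPM in Kmt2d-/- clones at day 7, 7.55 in Kmt2d+/+ clones at day 7, 0.155 in Kmt2d-/- clones at day 0 and 0.121 in Kmt2d+/+ clones at day 0. The day 0 groups overlapped, and the others were apart from their neighbours. Matn3 followed the same order, at 9.62, 0.916, 0.310 and 0.132 CPM, again with only the day 0 groups overlapping. In Matn3, Kmt2d+/+ clone 2 at day 7 (0.546 CPM, 37 counts) stood just above Kmt2d-/- clone 1 at day 0 (0.483 CPM, 20 counts). Matn4 had the same order of means, at 30.5, 0.484, 0.286 and 0.154 CPM, but in it Kmt2d+/+ clones at day 7 also overlapped Kmt2d-/- clones at day 0. For Matn2, at 222.9, 136.2, 86.3 and 80.2 CPM, the last 3 groups overlapped one another and the first stood apart. At day 7 both Kmt2d-/- clones lay above all Kmt2d+/+ clones in 17.9% of genes tested. The share with Kmt2d+/+ clones at day 7 above Kmt2d-/- clones at day 0 was not computed, so that gap is a description only.

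Beside the matrilins stood the genes whose products they bind. Of 17 matrilin partners tested, Col2a1 alone rose in Kmt2d-/- clones at day 7 and none fell, where 0.905% of all genes tested were called higher. The list's median log2 fold change was 0.91 against −0.02 for all genes tested. Col2a1 had 20470 and 24450 CPM in Kmt2d-/- clones, against 332.2, 125.6 and 252.5 CPM in Kmt2d+/+ clones (log2 6.57, SE 1.02, adjusted p 0.0252). Aggrecan (Acan), the large proteoglycan that matrilins tie to collagen, had 933.1 and 450.4 CPM in Kmt2d-/- clones, against 39.6, 24.4 and 13.6 CPM in Kmt2d+/+ clones, and did not pass. At day 0 Col2a1 was again the single partner to pass, where 1.17% of genes tested were called higher. Over 7 days Comp alone rose in Kmt2d-/- clones, where 0.672% of genes tested did. In Kmt2d+/+ clones over 7 days Col9a1, Comp and Col2a1 rose, 3 of 17 where 3.05% of genes tested did. Fn1, the adhesive glycoprotein fibronectin, fell to 986.0 ± 172.4 CPM at day 7 in Kmt2d+/+ clones, against 2687 ± 1197 CPM at day 0 (log2 −1.45, SE 0.34, adjusted p 0.0466), where 2.04% of genes tested were called lower. The Fn1 call was lost when any single clone except Kmt2d+/+ clone 2 was left out (adjusted p 0.0805 to 0.302). It was also lost in limma-voom (adjusted p 0.0573), in flow-cell run 1 alone (adjusted p 0.0504) and when only the Kmt2d+/+ libraries were fitted (adjusted p 0.0769). At day 7 the Col2a1 call was lost without either Kmt2d-/- clone or Kmt2d+/+ clone 1 or 3 (adjusted p 0.0524 to 0.179).

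Of 18 other cartilage matrix genes tested, of 20 listed, Col2a1 was again the single gene to pass at day 7, with a list median of 2.51. In 14 of the 18 both mutants lay above all controls and in 1 below them, orderings that 17.9% and 19.8% of genes tested showed. Over 7 days in Kmt2d-/- clones, 3 of the 18 rose, Fmod (fibromodulin, a collagen-binding proteoglycan) 41.7-fold, Ucma (a cartilage Gla protein) 121.6-fold and Comp, which encodes COMP, 47.9-fold, where 0.672% of genes tested were called higher. The list median was 4.25, against 5.84 for the matrilins and −0.00 for all genes. In Kmt2d+/+ clones 5 rose, Fmod 18.9-fold, Col9a1 (a chain of collagen IX) 55.3-fold, Ucma 19.9-fold, Comp 10.8-fold and Col2a1 15.5-fold, where 3.05% of genes tested were called higher. There the list median was 3.25, against 2.20 for the matrilins and 0.03 for all genes.

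These day effects were sensitive to single clones and to the fit. In Kmt2d-/- clones all 3 calls were lost without either Kmt2d-/- clone or Kmt2d+/+ clone 3 (adjusted p 0.0911 to 0.343), and Fmod and Ucma also without Kmt2d+/+ clone 1 (adjusted p 0.0614 and 0.0678). Comp ranged from 4.87 to 5.89 and Fmod from 5.14 to 6.08 on the log2 scale when a clone was left out. In Kmt2d+/+ clones all 5 were lost without Kmt2d+/+ clone 1 or 3 (adjusted p 0.142 to 0.312), Ucma also without clone 2 (adjusted p 0.0541), and Comp and Col2a1 without either Kmt2d-/- clone (adjusted p 0.0608 to 0.0709). Log2 fold changes then ranged from 3.83 to 7.09 for Col9a1, 3.13 to 5.67 for Col2a1, 2.14 to 4.11 for Comp and 3.80 to 4.99 for Ucma. In limma-voom, Comp and Ucma were lost in Kmt2d-/- clones (adjusted p 0.0768 and 0.0754) and Col9a1, Comp and Ucma in Kmt2d+/+ clones (adjusted p 0.076, 0.133 and 0.111). When only the groups compared were fitted, all 3 calls were lost in Kmt2d-/- clones (adjusted p 0.118 to 0.140), and Comp and Col2a1 were lost in Kmt2d+/+ clones (adjusted p 0.057 and 0.0638). In flow-cell run 2 alone, Comp and Ucma were lost in Kmt2d-/- clones (adjusted p 0.0556 and 0.0867) and Ucma in Kmt2d+/+ clones (adjusted p 0.0975).

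Among genes of multiple epiphyseal dysplasia, Matn3 and Slc26a2, a sulfate transporter needed for proteoglycan sulfation, rose in Kmt2d-/- clones at day 7, 2 of the 6 listed, where 0.905% of genes tested were called higher. Slc26a2 had 88.2 and 77.9 CPM in Kmt2d-/- clones, against 38.0, 34.6 and 24.6 CPM in Kmt2d+/+ clones. Its log2 fold change was 1.36 (SE 0.25, adjusted p 0.0372), and the call was lost when any single clone except Kmt2d+/+ clone 2 was left out (adjusted p 0.078 to 0.179), in flow-cell run 2 alone (adjusted p 0.0656) and when only the day 7 libraries were fitted (adjusted p 0.0757). The list's median log2 fold change was 2.49, against −0.02 for all genes tested. Matn3 is itself a matrilin, so its call here is the one already given above. In Kmt2d-/- clones Matn3 and Comp passed over 7 days, where 0.672% of genes tested were called higher. In Kmt2d+/+ clones Matn3, Comp and Col9a1 did, where 3.05% were.

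Proteins that share the VWA domain without being matrilins did not pass at day 7 in any of the 11 genes tested by edgeR, with a median log2 fold change of −0.07. Since 1.87% of all genes tested passed, a count of 0 among 11 does not set them apart. At an unadjusted p under 0.05 there was 1, and DESeq2 called 1 and limma-voom 0. Of all genes tested at day 7, 19.9% had an unadjusted p under 0.05, DESeq2 called 10.3% and limma-voom 3.45%. The most abundant, Col12a1 (a fibril-associated collagen), had 617.6 ± 381.5 CPM in Kmt2d-/- clones and 734.9 ± 255.6 CPM in Kmt2d+/+ clones (SD, n = 2 and 3). Antxr1, a receptor with this domain, rose 1.99-fold over 7 days in Kmt2d+/+ clones (adjusted p 0.0255), the 1 gene of the list called there, and lost the call without clone 1 or 3 (adjusted p 0.160 and 0.269). Of 6 proteases tested that cleave matrilins or COMP, 0 passed in edgeR in any comparison, which for so short a list lies close to the shares of all genes. At day 7 between genotypes 2 had an unadjusted p under 0.05, and DESeq2 called 2 and limma-voom 1. The shares of all genes by these rules were again 19.9%, 10.3% and 3.45%, in that order. Averaged over all 10 libraries Adamts12 was the most abundant, with 89.5 ± 16.9 CPM in Kmt2d-/- clones and 52.9 ± 22.0 CPM in Kmt2d+/+ clones at day 7. At day 7 Adamts1 exceeded it in Kmt2d+/+ clones 2 and 3, but not in clone 1, where Adamts12 had 78.2 CPM. Adamts1 had 26.0 and 29.6 CPM in Kmt2d-/- clones, against 73.4, 144.4 and 93.0 CPM in Kmt2d+/+ clones at day 7. There both mutants lay below all controls, an ordering of 19.8% of genes tested (log2 −1.90, SE 0.44, adjusted p 0.0614).

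Of 10 transcription factors known to act at matrilin or cartilage genes, 0 passed between genotypes at either day in edgeR. With 1.87% of all genes passing at day 7 and 2.15% at day 0, a count of 0 among 10 does not set them apart. At an unadjusted p under 0.05 there were 4 at each day, while DESeq2 called 3 at day 7 and 2 at day 0, and limma-voom 1 and 0. Of all genes tested, 19.9% had an unadjusted p under 0.05 at day 7 and 20.2% at day 0. DESeq2 called 10.3% and 10.6% of all genes, and limma-voom 3.45% and 1.72%, at day 7 and day 0. The most abundant was Nfix, a nuclear factor I protein, with 920.7 ± 143.6 CPM in Kmt2d-/- clones and 761.7 ± 85.0 CPM in Kmt2d+/+ clones at day 7. Sox9, the master regulator of chondrocytes, had 409.1 and 480.9 CPM in Kmt2d-/- clones, against 228.3, 115.6 and 96.1 CPM in Kmt2d+/+ clones at day 7. At day 0 it had 155.3 and 174.8 CPM in Kmt2d-/- clones, against 33.7, 69.3 and 21.2 CPM in Kmt2d+/+ clones. The mutants lay above all controls at both days without an adjusted p under 0.05 (0.118 at day 7 and 0.0654 at day 0). Shox2, a homeobox factor of limb cartilage, lay the other way, with 1.08 and 9.41 CPM in Kmt2d-/- clones, against 43.6, 32.4 and 41.0 CPM in Kmt2d+/+ clones at day 7 (adjusted p 0.0769). At day 0 Shox2 had 4.86 and 7.09 CPM in Kmt2d-/- clones, against 29.1, 25.9 and 28.0 CPM in Kmt2d+/+ clones (adjusted p 0.126). Over the 10 factors, both mutants stood above all controls in 4 and below in 2 at day 7, where 17.9% and 19.8% of genes tested did. At day 0 they stood above in 2 and below in 2, where 18.6% and 18.3% of genes tested did. Runx2, a factor of hypertrophic chondrocytes and osteoblasts, rose 1.94-fold over 7 days in Kmt2d+/+ clones (adjusted p 0.0382), and the call was lost when any single clone except Kmt2d+/+ clone 2 was left out (adjusted p 0.0606 to 0.312). It was lost too in flow-cell run 2 alone (adjusted p 0.0558) and when only the Kmt2d+/+ libraries were fitted (adjusted p 0.0518).

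**Figure D5:**
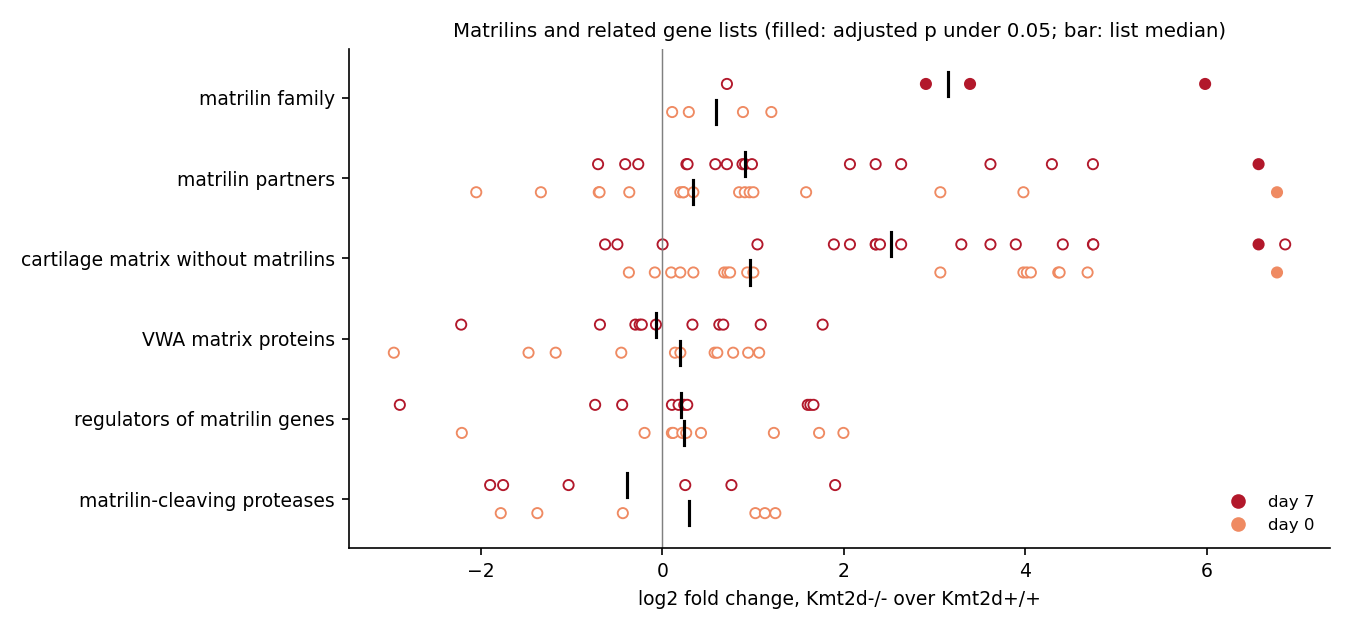
Each circle is the log2 fold change of 1 gene, Kmt2d-/- over Kmt2d+/+, at day 7 (upper row of each list) and day 0 (lower row), filled where the adjusted p was under 0.05, with a bar at the list median. The matrilin median is 3.15 at day 7 and 0.59 at day 0, and that of the other cartilage matrix genes is 2.51 and 0.97.

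The genes most like each member were ranked by Pearson r of log2 CPM over the 10 libraries, among 10620 genes with at least 5 CPM in a group. These libraries fall into 4 groups and include each clone at both days, so r is given as a description. Matn1 was most like Igfbp4, an insulin-like growth factor binding protein (r = 0.984), followed by Adcy5, Dact3 and Bmp8a. Matn3 was most like Erg, an ETS transcription factor found in articular cartilage (r = 0.987), followed by Slc8a3, Csgalnact1, Stk26 and Vangl2. Csgalnact1, which starts chondroitin sulfate chains, was nearest to Matn2 (r = 0.961), ahead of Ctnnb1, Tmem9 and Slc8a3. Matn4 was most like Fzd9, a Wnt receptor (r = 0.986), followed by Mdfi, Erp29, Ldlrad3 and Gjc3. Csgalnact1 and Slc8a3 stood on the lists of both Matn2 and Matn3. Erg had 37.2 CPM in Kmt2d-/- clones and 2.10 in Kmt2d+/+ clones at day 7, and Fzd9 had 170.8 and 9.55 CPM in the same groups.

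The nearest protein-coding genes on either side of the matrilins did not pass between genotypes. With 1.87% of all genes passing at day 7 and 2.15% at day 0, that does not set so few genes apart. Beside Matn1, Laptm5 lies 8244 bases away and had 9.72 ± 6.75 CPM in Kmt2d-/- clones and 13.0 ± 7.30 CPM in Kmt2d+/+ clones at day 7. Beside Matn3, Wdr35 lies 1864 bases away (log2 0.22, adjusted p 0.673). Beside Matn2, Rpl30 lies 4232 bases away (log2 0.03, adjusted p 0.956). Beside Matn4, Slpi lies 298 bases away and had 21.2 ± 16.02 CPM in Kmt2d-/- clones and 17.4 ± 23.1 CPM in Kmt2d+/+ clones, and Sdc4, 19087 bases away on the other side, had a log2 fold change of 0.82 (adjusted p 0.083). Over 7 days Slpi rose in Kmt2d+/+ clones (log2 6.52, adjusted p 0.0321), where 3.05% of genes tested were called higher. In Kmt2d-/- clones its change did not pass (log2 6.72, adjusted p 0.0885).

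Rbpjl is different in that it overlaps Matn4 on the opposite strand, with 149 shared exon bases. It had 1.62 ± 0.732 CPM in Kmt2d-/- clones and 0.0514 ± 0.0430 CPM in Kmt2d+/+ clones at day 7 and passed (log2 4.93, SE 0.94, adjusted p 0.041). The Kmt2d+/+ mean lay near the floor of 3 counts, 0.0409 to 0.0493 CPM in those libraries. How the Rbpjl call depends on single clones, runs or tools is not given here. Whether counting used strand is not given in the sources used here, so reads of Matn4 and Rbpjl cannot be told apart where they overlap. Within 10 Mb of each member, the median log2 fold change at day 7 was −0.05 around Matn1 (268 genes), −0.29 around Matn3 (63), −0.26 around Matn2 (70) and 0.35 around Matn4 (205). The corresponding values at day 0 were −0.01, −0.35, −0.21 and 0.27.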

How the data were processed

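The authors deposited an estimated count per gene and run, an expected count that was not normalized, in 20 columns. Salmon and GRCm38 are named in the submitters' processing notes, beside edgeR, limma and DESeq2. The summing of transcripts to genes and any use of strand are not given there. The 2 flow-cell runs of each library were summed and rounded, since few nonzero values, 0.351%, were within 0.001 of an integer. Run totals were 13883415 to 35785488. Symbols, positions and exon lengths came from GENCODE vM21.

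One edgeR 4.0.16 fit (R 4.3.3) held all 10 libraries, with 1 mean per group, filterByExpr, TMM and the quasi-likelihood F test (6 residual degrees of freedom). Benjamini-Hochberg adjustment ran over 15467 genes, and an adjusted p under 0.05 counts as passed. Each SE was the log2 fold change divided by the square root of F. Alternatives were DESeq2 1.42.0, limma-voom (limma 3.58.1), other scalings, filters, single runs, only the groups compared, a replicate block and each clone left out. For day effects and the interaction, the replicate block was a term for each clone in edgeR. Between genotypes it was clone as a random effect in limma-voom. The same clone gave both days; deviations from group means correlated between days at 0.363 to 0.571 in Kmt2d+/+ clones and 0.463 in Kmt2d-/- clones. Scripts were tested on simulated data.

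The members and lists were chosen with earlier results of these data known. Named genes were the members, Kmt2d, up to 6 passing genes per list or its most abundant one, the 5 most similar genes by r and the nearest protein-coding neighbours; Acan, Sox9, Shox2, Adamts1 and Rbpjl were added after their values were seen. Of the most similar genes, 2 are not reported here. Beyond the lists given, markers were those of chondrocytes and other tissues. For CPM per kilobase, the alternative transcript length was chosen after seeing the data.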

Additional observations from a re-analysis of the deposited data

How the results depend on the processing

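The count of matrilin genes that passed at day 7 between genotypes was 3 of 4, and 1 when only the groups compared were fitted; with each clone left out it ranged from 0 to 2. Between genotypes at day 0 it was 0 under every alternative run, but with only the groups compared the filter kept Matn2 alone of the 4. In Kmt2d-/- clones over 7 days it was 3, and 0 with only the groups compared, 4 with DESeq2 and 4 with the replicate block, both through Matn2, with a range of 0 to 3 when a clone was left out. In Kmt2d+/+ clones it was 2, and 1 with limma-voom, 1 in flow-cell run 2 alone, 3 with DESeq2 through Matn2 and 4 with the replicate block through Matn2 and Matn4, with a range of 0 to 2 when a clone was left out. For the interaction it was 0, and 1 with DESeq2. The replicate block with a term for each clone changed no other call of a member over 7 days or in the interaction. Between genotypes the block was clone as a random effect in limma-voom, and the count stayed at 3 at day 7 and 0 at day 0. Leaving out clones also leaves fewer samples; the cause of the other changes was not tested. Log2 fold changes of the 3 genes called at day 7 kept their sign in all 15 alternatives, from 2.57 to 3.16 for Matn1, 2.66 to 3.87 for Matn3 and 5.16 to 6.75 for Matn4. At day 0, Matn1 turned to −0.32 in flow-cell run 2 alone, −0.44 without Kmt2d-/- clone 1 and −0.12 without Kmt2d+/+ clone 1, and Matn2 to −0.076 without Kmt2d-/- clone 1. With a clone left out the day 0 values ranged from −0.44 to 0.86 for Matn1, −0.076 to 0.27 for Matn2, 0.046 to 1.84 for Matn3 and 0.067 to 1.42 for Matn4. For 14 calls of list genes, 141 of 210 alternatives kept the call, 69 lost it and 0 changed direction. At day 7 between genotypes, edgeR called 1 of 17 matrilin partners, DESeq2 6 and limma-voom 4, and of the 18 cartilage matrix genes 1, 8 and 7 in the same order. Over 7 days those counts were 3, 9 and 6 of the 18 in Kmt2d-/- clones and 5, 10 and 2 in Kmt2d+/+ clones. Of all genes tested, the same tools called 1.27%, 6.37% and 1.16% over 7 days in Kmt2d-/- clones. In Kmt2d+/+ clones they called 5.08%, 14.7% and 5.08%. Between genotypes, all genes together passed more often in DESeq2 than in edgeR, 10.3% against 1.87% at day 7 and 10.6% against 2.15% at day 0. In limma-voom 3.45% passed at day 7 and 1.72% at day 0. Depth limits the precision of Matn1, Matn3 and Matn4 at day 0, where each library held 1 to 20 counts of each.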

Other observations

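The flow-cell runs of 1 library did not always give the same matrilin level. In Kmt2d-/- clone 2 at day 7, unscaled Matn1 was 78.3 CPM in run 1 and 54.9 CPM in run 2, further apart than counting error (exact binomial p 6.44e-26). In the same library Matn4 was 20.2 and 14.02 CPM (exact binomial p 4.74e-08) and Matn3 was 6.99 and 4.32 CPM (exact binomial p 4.32e-05). Matn2 was 191.2 and 192.5 CPM there (exact binomial p 0.745). In that library Kmt2d was also apart between runs, at 121.1 and 103.7 CPM (exact binomial p 2.07e-09). It was apart in most other libraries too, as in Kmt2d+/+ clone 3 at day 7 (exact binomial p 1.71e-34). In Kmt2d+/+ clone 2 at day 0 it was not (exact binomial p 0.621). In Kmt2d-/- clone 1 at day 7, Matn1 and Matn2 were apart (exact binomial p 0.000908 and 0.00051). The share of all genes with such gaps was not computed, so they are not shown to be particular to matrilins or to 1 clone. The genotype difference at day 7 within run 1 alone was 3.07, 3.44 and 6.42 on the log2 scale for Matn1, Matn3 and Matn4, and within run 2 alone it was 2.64, 3.24 and 5.66. Only Matn3 in run 1 then missed the threshold (adjusted p 0.0513).

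Of the 4 matrilins, 3 lie next to a Laptm gene, and each lies on a chromosome with a syndecan gene, an arrangement looked up after the values were seen. At day 7, Laptm5 beside Matn1, Laptm4b beside Matn2 and Laptm4a beside Matn3 had log2 fold changes of −0.42, −0.43 and −0.03, and none passed. The syndecans Sdc3, Sdc2, Sdc1 and Sdc4, on the chromosomes of Matn1, Matn2, Matn3 and Matn4, had 0.05, −0.38, −0.44 and 0.82, and none passed. With 1.87% of all genes passing at day 7, that does not set these genes apart.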
